A study of Mus musculus with 8 samples.

Results

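The tumor suppressor gene Trp53, which encodes p53, and 9 of its target genes were followed in mouse hepatocytes with and without the cannabinoid 1 receptor gene Cnr1. The 10 genes (Trp53, Mdm2, Cdkn1a, Ccng1, Bax, Bbc3, Pmaip1, Phlda3, Ei24 and Zmat3) were chosen by name as p53 and well-known targets of p53, and all of their probes were taken. They had 11 probes on the array, and 9 of them were among the 11072 tested genes, out of 21368 genes that could be named on the array. The rule used no measured values, but the genes were chosen with earlier results of these data known.

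RNA came from isolated hepatocytes of 4 hCNR1+/+ and 4 hCNR1-/- male mice, 12 to 14 weeks old, on standard diet and without treatment, with 1 array per mouse. The hCNR1-/- mice carried floxed Cnr1 and Cre under the albumin promoter, which is active in hepatocytes, and their labels name the strain as CNRO Alb-Cre. The hCNR1+/+ mice were littermates whose strain label, CNRO, names no Cre, so the Cre transgene and the loss of Cnr1 cannot be told apart. All arrays lay on 1 slide, with hCNR1+/+ in row 1 and hCNR1-/- in row 2, so row and genotype cannot be told apart either.

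p53 is a transcription factor that is kept low in unstressed cells because Mdm2, the product of one of its own target genes, marks it for destruction. After DNA damage and other stresses, p53 protein is stabilised and raises genes that halt the cell cycle, repair DNA or trigger the mitochondrial pathway of cell death. Because this control acts mainly on p53 protein, the mRNA of Trp53 itself says little about p53 activity, and the target genes are the usual RNA readout. In the liver, p53 has been tied to the response to toxins, to lipid metabolism and to regeneration.

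The signal of each probe is given as log2 of the spot intensity relative to the 75th percentile of its own array, so that 0 is the level of that percentile. Values were compared between genotypes for the same probe, never between genes. The 75th percentile of intensity ran from 62.0 to 139 in hCNR1+/+ and from 29.3 to 124 in hCNR1-/- arrays, and 35.0% to 42.3% and 28.6% to 39.3% of the spots were flagged as well above background. In each list of values below, the arrays stand in the order of replicates 1 to 4. The dimmest array was hCNR1-/- replicate 4, which correlated with the other arrays of its genotype at a mean of 0.942, against 0.972 to 0.975 for the others. The Cnr1 probe was well above background on 0 of 8 arrays, so the genotype was taken from the labels. All 16 hepatocyte markers, Alb among them, were well above background on all 8 arrays. Of 14 Kupffer cell and macrophage markers, 10 were tested and all 10 had a lower mean in hCNR1-/-, with a median log2 difference of -0.98; their summed linear signal, in units of each array's 75th percentile, ran from 85.6 to 169 in hCNR1+/+ and from 51.5 to 70.6 in hCNR1-/- arrays, and Cd163 and Timd4 were well above background on no array. Of 12 lymphocyte markers 3 were tested and all 3 had a higher mean in hCNR1-/-, with summed signals of 84.0 to 104 and 109 to 259, and 7 were well above background on no array. The 1 tested of 8 neutrophil markers was higher on every hCNR1-/- array than on every hCNR1+/+ array, as were 12.7% of all tested genes. Its signal was 11.1 to 20.6 against 7.54 to 9.77, and 5 of the 8 were well above background on no array. Of 10 sinusoidal endothelial markers 8 were tested, with 6 lower and 2 higher in hCNR1-/-. Of 10 stellate cell markers 2 were tested, with 2 lower, and of 7 cholangiocyte markers 2 were tested, with 1 lower and 1 higher. The part of these cells in any gene value below was not tested, and in bulk RNA fewer cells of a type and less RNA per cell cannot be told apart.

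None of the tested members passed an adjusted p below 0.05 between genotypes. By limma with Benjamini-Hochberg adjustment over all tested genes, 0 of the 9 tested members passed, against 4.24% of all tested genes (1.30% lower and 2.94% higher in hCNR1-/-). At a fold change above 2 with an unadjusted p below 0.05, 0 of 9 members passed, against 8.53% of all tested genes. At an unadjusted p below 0.05 alone, 1 member passed (Bax), against 21.6% of all tested genes. The median log2 difference was 0.07 over the 9 members and 0.08 over all tested genes. In hCNR1-/- hepatocytes 3 members had the lower mean and 6 the higher one, but this split follows the scaling of the arrays: 6 were lower after quantile normalization and all 9 without scaling, where the median over all tested genes moved by -0.56.

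**Figure D1:**
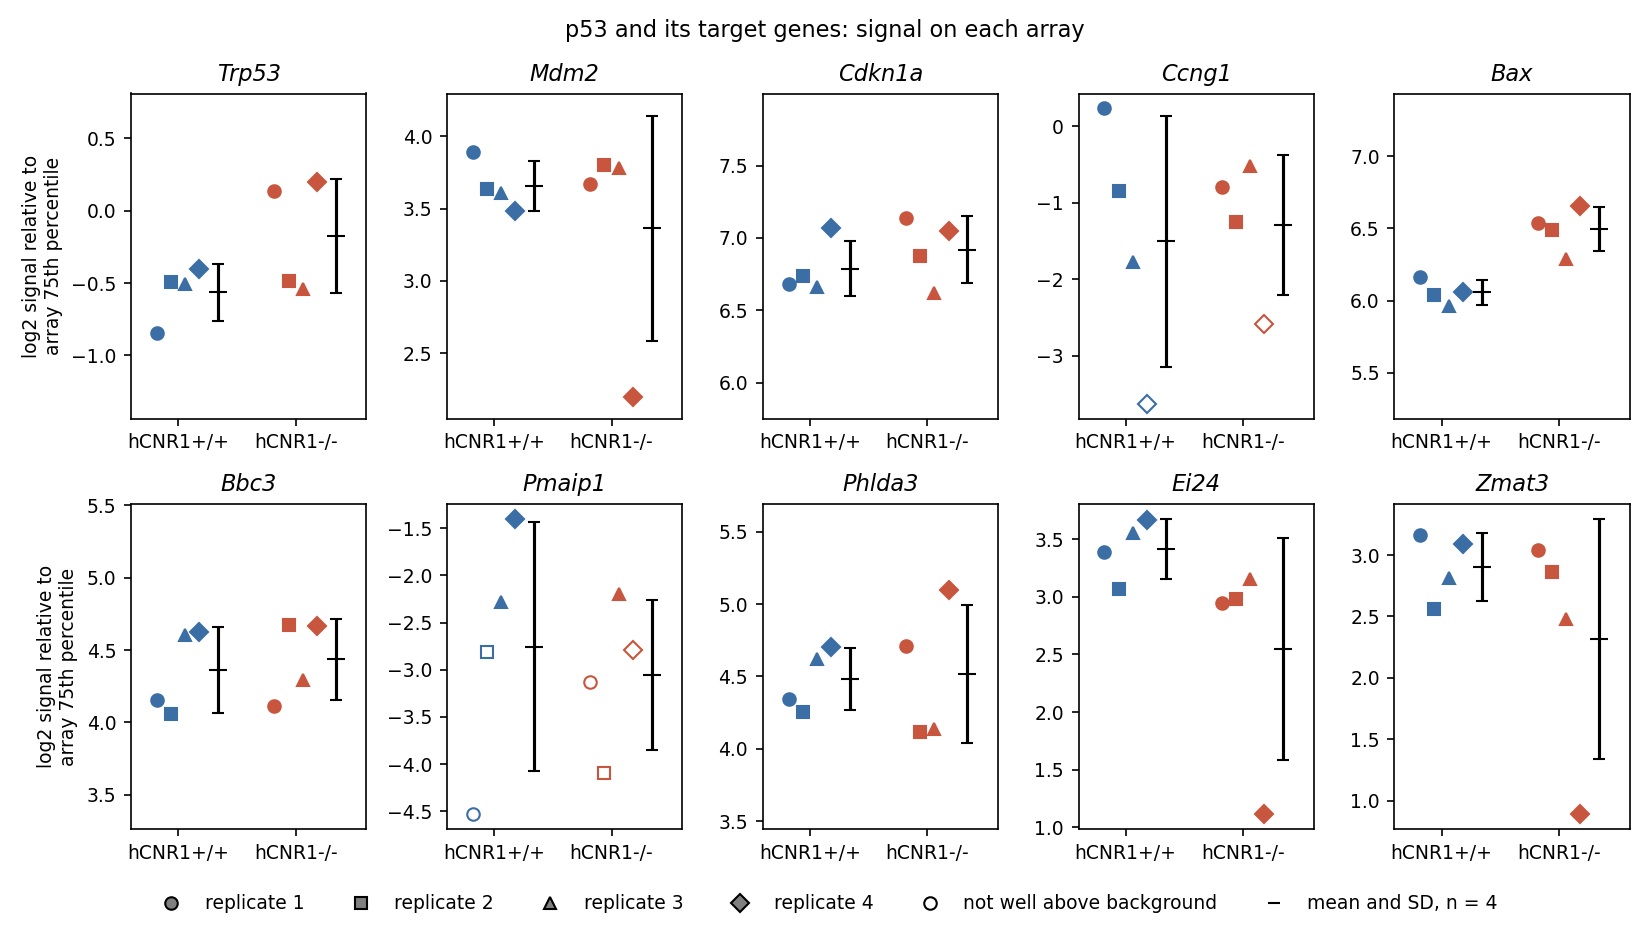
Log2 signal of each of the 10 genes, relative to the 75th percentile of its array (y axis, with its own range in each panel), on 4 hCNR1+/+ (blue) and 4 hCNR1-/- (red) arrays; symbols stand for replicates, open symbols for arrays where the probe was not well above background, and bars for the mean and SD over 4 arrays. The genotypes overlap in every panel except that of Bax, and hCNR1-/- replicate 4 lies far below the rest for Mdm2, Ei24 and Zmat3.

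Trp53 mRNA was measured well above background on all 8 arrays. The control arrays read -0.85, -0.49, -0.51 and -0.41 on the log2 scale. The hCNR1-/- arrays read 0.13, -0.49, -0.54 and 0.20. In hCNR1-/-, replicates 1 and 4 lay above every hCNR1+/+ array while replicates 2 and 3 lay among them. The means were -0.56 ± 0.19 and -0.17 ± 0.39 (SD, n = 4), a log2 fold change of 0.39 with a standard error of 0.24 (adjusted p = 0.385, limma). An exact two-sided permutation test, which runs through all 70 ways to split the arrays into 4 and 4, gave p = 0.229; the smallest p it can give is 0.0286. Without scaling between arrays the log2 fold change of Trp53 was -0.17, so its direction is not settled.

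Mdm2, the ubiquitin ligase that targets p53 for destruction and is itself induced by p53, did not pass the test. Its control arrays read 3.89, 3.64, 3.61 and 3.48, whereas the hCNR1-/- arrays read 3.67, 3.81, 3.78 and 2.20. Of the hCNR1-/- arrays 3 lay within the range of the controls, and replicate 4 lay far below it. The means were 3.65 ± 0.17 and 3.36 ± 0.78 (SD, n = 4), and the log2 fold change was -0.29, with a 95% interval from -1.09 to 0.51 (adjusted p = 0.672, limma). Without hCNR1-/- replicate 4 the difference was 0.10, with an interval from -0.26 to 0.45, and the SD within hCNR1-/- was 0.07 (n = 3).

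Cdkn1a encodes p21, the cyclin-dependent kinase inhibitor through which p53 halts the cell cycle, and is the target most often used as a p53 readout. The promoter of its first start is shown because it holds 2 matches to the p53 half-site, the 10-base consensus that p53 binds as a pair of copies. The sequence is RefSeq's, from the 250 bases before the first start (build GRCm38.p6, chr17:29090729-29090978, + strand). The capitals mark the 2 exact matches, which begin 73 and 51 bases before the start and lie 12 bases apart. Only exact matches were searched. The window of another Cdkn1a start (chr17:29093519-29093768, + strand) held 0 exact matches. Which start the measured RNA came from was not tested. The 10 bases right after the second match, tgacatgttc, depart from the consensus at their first base alone and stay in lower case.
Cdkn1a: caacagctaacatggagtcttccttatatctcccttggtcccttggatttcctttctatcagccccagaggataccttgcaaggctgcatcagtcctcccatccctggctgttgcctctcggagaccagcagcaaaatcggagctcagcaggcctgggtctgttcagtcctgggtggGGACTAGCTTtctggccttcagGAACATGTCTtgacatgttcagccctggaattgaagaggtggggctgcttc

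The main probe of Cdkn1a read 6.68, 6.74, 6.66 and 7.07 on the control arrays. It read 7.14, 6.87, 6.62 and 7.05 on the hCNR1-/- arrays. The lowest of the 8 values was an hCNR1-/- array and the highest one too, so the hCNR1-/- arrays spanned the whole range of the controls. The means were 6.79 ± 0.19 and 6.92 ± 0.23 (SD, n = 4), and the log2 fold change was 0.13 with a standard error of 0.21 and a 95% interval from -0.33 to 0.59 (adjusted p = 0.741, limma). A change of 2-fold, 1.0 on the log2 scale, lies outside this interval in either direction. The probe was spotted 10 times on each array, with an SD between spots of 0.04 to 0.07, well under the spread between mice. The direction of the Cdkn1a difference turned under quantile normalization (-0.12), without scaling (-0.42) and with the percentile taken over detected probes (-0.02). A second Cdkn1a probe was well above background on 1 of 8 arrays, hCNR1-/- replicate 1, and gives no fold change.

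Ccng1, cyclin G1, a p53 target that feeds back on Mdm2, was close to background. Its control arrays read 0.23, -0.85, -1.78 and -3.63, whereas the hCNR1-/- arrays read -0.80, -1.25, -0.52 and -2.58. The lowest value of each genotype came from replicate 4, the dimmest array of each genotype, and the probe was not well above background there. The log2 fold change was 0.22 with a standard error of 0.76 (adjusted p = 0.894, limma), and its interval, from -1.49 to 1.93, holds changes beyond 2-fold in both directions. The sign turned without hCNR1+/+ replicate 4 (-0.49) and without hCNR1-/- replicate 3 (-0.039), and without hCNR1+/+ replicate 1 the value was 0.80.

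Among the genes of cell death, Bax stood out as the only member whose genotypes did not overlap. Bax encodes a pore-forming protein of the BCL2 family that opens the outer mitochondrial membrane. Its promoter is shown because Bax had the smallest p of the members; the 250 bases before the start (GRCm38.p6, chr7:45466899-45467148, - strand) hold 1 exact p53 half-site, in capitals, 201 bases before the start.
Bax: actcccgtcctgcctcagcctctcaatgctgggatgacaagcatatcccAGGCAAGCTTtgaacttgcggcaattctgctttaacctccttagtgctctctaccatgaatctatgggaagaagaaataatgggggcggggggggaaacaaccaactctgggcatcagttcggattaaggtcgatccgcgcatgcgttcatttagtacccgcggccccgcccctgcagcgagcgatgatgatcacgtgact

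The log2 signal of Bax read 6.17, 6.04, 5.96 and 6.06 on the control arrays. It read 6.54, 6.49, 6.29 and 6.65 on the hCNR1-/- arrays. All 4 hCNR1-/- arrays lay above all 4 hCNR1+/+ arrays, as they did for 12.7% of all tested genes (and below them for 5.04%, 17.8% in either direction). The means were 6.06 ± 0.08 and 6.49 ± 0.15 (SD, n = 4), a 1.35-fold higher mean in hCNR1-/- (log2 fold change 0.43, 95% interval from 0.03 to 0.84). The unadjusted p was 0.0391 and the adjusted p 0.205 in limma, and the exact permutation p was 0.0286, the smallest it can give. Leaving out each array in turn gave 0.38 to 0.50. Bax passed the adjusted test with array weights (adjusted p = 0.0455, limma). In that setting 646 of the 11072 tested genes passed as lower and 2176 as higher. Without scaling the log2 fold change of Bax was -0.12, against a median of -0.47 over all tested genes.

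Bbc3 and Pmaip1 encode Puma and Noxa, small BH3-only proteins that neutralise the protective members of the BCL2 family. Bbc3 read 4.16, 4.06, 4.61 and 4.62 in hCNR1+/+, and 4.11, 4.67, 4.29 and 4.66 in hCNR1-/- arrays. Both genotypes were spread over nearly the same range. The log2 fold change of Bbc3 was 0.07, with a standard error of 0.23 and a 95% interval from -0.45 to 0.60 (adjusted p = 0.880, limma), and its sign changed under several alternatives. Pmaip1 was well above background on 2 hCNR1+/+ arrays and 1 hCNR1-/- array, and was not tested. Its control arrays read -4.53, -2.81, -2.28 and -1.40 and its hCNR1-/- arrays -3.13, -4.09, -2.20 and -2.79, so the genotypes overlapped near background.

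Ei24, first described as a gene induced by etoposide through p53, encodes a membrane protein of the endoplasmic reticulum, and it had the largest difference of the members. Its promoter is shown for that reason; the 250 bases before the start (GRCm38.p6, chr9:36797335-36797584, - strand) end in 1 exact p53 half-site, in capitals, which begins 10 bases before the start.
Ei24: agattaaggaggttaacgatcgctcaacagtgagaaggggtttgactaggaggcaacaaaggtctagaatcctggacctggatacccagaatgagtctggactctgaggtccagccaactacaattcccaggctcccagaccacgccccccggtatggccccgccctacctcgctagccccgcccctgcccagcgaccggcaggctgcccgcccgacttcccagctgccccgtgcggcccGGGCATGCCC

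The log2 signal of Ei24 read 3.39, 3.07, 3.55 and 3.67 on the control arrays. It read 2.94, 2.98, 3.16 and 1.11 on the hCNR1-/- arrays. Of the hCNR1-/- arrays 3 lay below all controls, and replicate 3 lay above the lowest control. The means were 3.42 ± 0.26 and 2.55 ± 0.96 (SD, n = 4), a log2 fold change of -0.87 with a standard error of 0.43 and a 95% interval from -1.83 to 0.09 (adjusted p = 0.276, limma). The exact permutation test gave p = 0.0571. Without hCNR1-/- replicate 4 the log2 fold change was -0.39, with an interval from -0.81 to 0.03 and an adjusted p of 0.181 (limma). Ei24 was the lower in hCNR1-/- under all 20 alternatives, from -1.43 to -0.39, and passed the adjusted test under none of them.

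Phlda3, a pleckstrin homology domain protein that holds back Akt, and Zmat3, a zinc finger protein that binds RNA, complete the members. Phlda3 read 4.34, 4.25, 4.62 and 4.71 in hCNR1+/+, and 4.71, 4.12, 4.14 and 5.10 in hCNR1-/- arrays. Its hCNR1-/- values lay on both sides of the controls. The log2 fold change was 0.04, with a standard error of 0.27 and a 95% interval from -0.56 to 0.63 (adjusted p = 0.954, limma). Zmat3 read 3.16, 2.56, 2.81 and 3.09 in hCNR1+/+, and 3.04, 2.86, 2.48 and 0.89 in hCNR1-/- arrays. As with Mdm2 and Ei24, replicate 4 lay far below the other hCNR1-/- arrays. The log2 fold change of Zmat3 was -0.59 with all arrays (95% interval from -1.57 to 0.39, adjusted p = 0.470, limma) and -0.11 without that array.

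For 5 of the 9 tested members, Trp53, Cdkn1a, Bax, Bbc3 and Phlda3, the 95% interval lay within a 2-fold change in either direction, as it did for 44.9% of all tested genes. The intervals of the other 4 members reached past 2-fold. Without hCNR1-/- replicate 4 the intervals of 8 members lay within 2-fold, all but that of Ccng1. These intervals bound the size of a difference and do not show that the genotypes were alike.

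**Figure D2:**
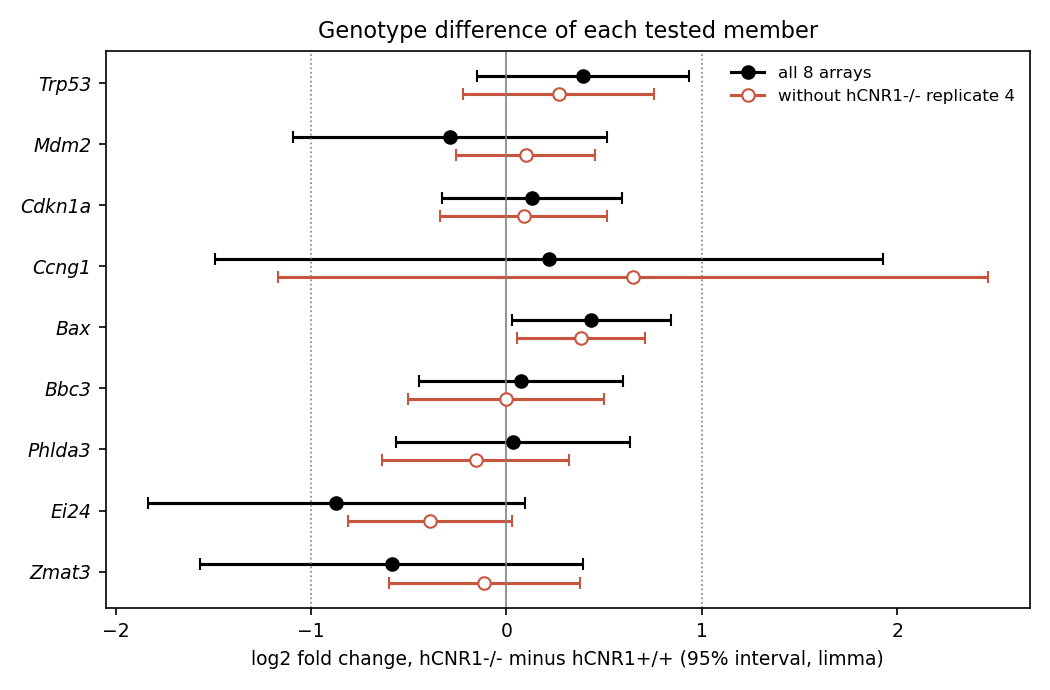
Log2 fold change (hCNR1-/- minus hCNR1+/+, x axis) of the 9 tested members with its 95% interval from limma, over all 8 arrays (filled) and without hCNR1-/- replicate 4 (open); dotted lines mark a 2-fold change. The interval of Bax alone lies off 0, and the negative values of Ei24 and Zmat3 come closer to 0, from -0.87 to -0.39 and from -0.59 to -0.11, when the dimmest array is left out.

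The p53 half-site was searched on both strands, which for this palindromic consensus give the same matches, in the 250 bases before each start in RefSeq's promoter table. Of the 10 genes 8 had an entry, and 6 of them, Trp53, Mdm2, Cdkn1a, Ccng1, Bax and Ei24, had an exact match, against 8.2% of all genes in the table. The match of Trp53 began 75, that of Mdm2 186 and that of Ccng1 185 bases before the start. A pair of exact half-sites no more than 13 bases apart, as in Cdkn1a, was found in 0.0639% of all windows. The windows of Bbc3 and Phlda3 held no exact match, which says only that these letters are not there. A match is a description of the sequence, and the members with a match differed in direction between genotypes.

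The genes whose values ran most closely with Trp53 over the 8 arrays included Ins2 (Pearson r = 0.959) and Pias4 (r = 0.954), out of 11071 tested genes. For Cdkn1a they were Glmp (r = 0.958), DXBay18 (r = 0.935) and Gpatch3 (r = 0.934). These are descriptions over 8 arrays of 2 genotypes and share the scaling of each array.

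Beyond the 10 members, a list of 103 genes was followed that act on p53, respond to it or carry out its effects; 100 were on the array and 76 were tested. At an adjusted p below 0.05, 2 were lower in hCNR1-/- (Lncpint and Neat1) and 2 were higher (Sirt1 and Bad), beside 1.30% and 2.94% of all tested genes; over both directions that is 4 of 76 genes, near the 4.24% of all tested genes. At a fold change above 2 with an unadjusted p below 0.05, 4 were lower and 5 higher, against 3.75% and 4.78% of all tested genes. The median log2 fold change over the 76 genes was 0.09. The genotypes did not overlap for 6 of the 76 genes with hCNR1-/- lower and for 7 with it higher. Over all tested genes these shares were 5.04% and 12.7%. The 10 genes named below from this list kept their direction under every alternative in which they were tested. They were picked for a call or a large difference on these same arrays, so a turn of sign was unlikely from the start. Their kept direction is therefore no added support. The medians of the lists changed sign between alternatives.

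Among 20 regulators of p53, 16 were tested and Sirt1, the NAD-dependent deacetylase that removes acetyl groups from p53, rose. Sirt1 read -0.25, -0.70, -1.25 and -1.23 in hCNR1+/+, and 0.56, 1.12, 1.57 and 1.41 in hCNR1-/- arrays. All hCNR1-/- arrays lay above all controls. The log2 fold change was 2.02 with a standard error of 0.31 (adjusted p = 0.0156, limma; exact permutation p = 0.0286). Sirt1 passed the adjusted test under 12 of 20 alternatives, and lost the call without hCNR1+/+ replicate 3 and without hCNR1-/- replicate 3 (adjusted p = 0.0606 and 0.0601, limma). With normexp background correction its log2 fold change was 1.24 (adjusted p = 0.0691, limma). That setting adds an offset of 50 to each intensity, which by itself shrinks log2 differences of dim probes.

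Atr, a kinase that activates p53 after replication stress, and Mdm4, a partner of Mdm2 that blocks p53, had log2 fold changes of 1.89 and 1.44 and passed only the rule on fold change (adjusted p = 0.156 and 0.211, limma). For both, hCNR1+/+ replicate 4 was the lowest of the 8 arrays, at -3.46 for Atr and -4.14 for Mdm4. Without that array their values were 1.12 and 0.94. With normexp background correction, whose offset shrinks differences of dim probes, they were 0.74 and 0.26. The kinases Atm, Chek1 and Chek2, which also act upstream of p53, were well above background on 0 arrays.

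No gene of cell cycle arrest passed either rule among 9 tested of 12, with a median of 0.00. Of 16 cell cycle genes that are lowered through p21 and the DREAM complex, 6 were tested and none passed either rule, with a median of 0.31. Ccnb1, Cdk1, Top2a and Mki67, which mark dividing cells, were among those well above background on 0 arrays, so a fall of these genes was not measurable here. The 6 tested of 8 genes of DNA repair and nucleotide supply had a median of 0.30, and none passed either rule.

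Of 14 further targets in cell death, 11 were tested, with a median log2 fold change of -0.20, and 0 passed the adjusted test. Fas, a death receptor, read -0.33, -0.66, -0.28 and 0.86 in hCNR1+/+, and -1.42, -1.32, -1.01 and -1.80 in hCNR1-/- arrays. All hCNR1-/- arrays lay below all controls, a 2.44-fold lower mean (log2 fold change -1.28, standard error 0.34, adjusted p = 0.0648, limma). The value of Fas was -0.53 with normexp background correction (adjusted p = 0.407, limma) and -0.96 without hCNR1+/+ replicate 4. The normexp offset shrinks differences of dim probes such as that of Fas. Trp53inp1, a stress protein that promotes p53 activity, had a log2 fold change of 1.50 (adjusted p = 0.155, limma) on its brightest probe and 0.33 when its probes were averaged, so its probes disagree. Without hCNR1+/+ replicate 4, its lowest array, the value was 0.91.

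Of 10 metabolic targets, 9 were tested, with a median of -0.38, and 0 passed the adjusted test. Ddit4, also known as Redd1, an inhibitor of the growth kinase complex mTORC1, read 7.28, 7.33, 7.83 and 8.65 in hCNR1+/+, and 6.36, 6.76, 6.53 and 6.64 in hCNR1-/- arrays. The genotypes did not overlap, with a log2 fold change of -1.20 and a standard error of 0.31 (adjusted p = 0.0619, limma). Ddit4 passed the adjusted test under 5 of 20 alternatives.

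In the BCL2 family and the caspases of the mitochondrial pathway, 16 of 19 genes were tested, with a median of 0.35, of which 4 were lower and 12 higher. Bad, a BH3-only protein controlled by phosphorylation, read 4.92, 4.80, 4.65 and 4.35 in hCNR1+/+, and 5.64, 5.63, 5.29 and 6.04 in hCNR1-/- arrays. Like Bax, Bad was higher on every hCNR1-/- array than on every control, with a log2 fold change of 0.97 and a standard error of 0.23 (adjusted p = 0.0479, limma). The call of Bad was a narrow one: it held under 4 of 20 alternatives, and of the 8 fits with 1 array left out it held only without hCNR1-/- replicate 4, with adjusted p from 0.0769 to 0.145 in the others. Without scaling the log2 fold change of Bad was 0.41. Xiap, which inhibits caspases, passed the rule on fold change with a log2 fold change of 1.25 (adjusted p = 0.221, limma), its genotypes overlapped, and it was 0.71 without hCNR1+/+ replicate 4.

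Of 4 long noncoding RNAs induced by p53, 3 were tested. At an adjusted p below 0.05, 2 were lower in hCNR1-/-, against 1.30% of all tested genes. The third, Pvt1, had a log2 fold change of -1.08 (adjusted p = 0.355, limma), and its genotypes overlapped. The list was chosen with earlier results of these data known, so these calls are a description only. Lncpint read 3.16, 3.41, 2.79 and 3.19 in hCNR1+/+, and -2.09, -0.27, -0.63 and 0.71 in hCNR1-/- arrays. The genotypes were far apart, at a log2 fold change of -3.71 with a standard error of 0.50 (adjusted p = 0.0116, limma). Averaging the probes of Lncpint gave -2.19. Neat1, the scaffold of nuclear paraspeckles, had a log2 fold change of -3.34 (adjusted p = 0.0188, limma), and its lowest control, replicate 4 at 3.39, lay above its highest hCNR1-/- array at 2.38. Lncpint passed under 18 of 20 alternatives and Neat1 under 12, and Neat1 lost the call without hCNR1+/+ replicate 2 or 3 and without hCNR1-/- replicate 1 or 3 (adjusted p from 0.0501 to 0.0698, limma). Lncpint and Neat1 fell while none of the protein-coding members passed, and that difference between the lists was not tested.

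**Figure D3:**
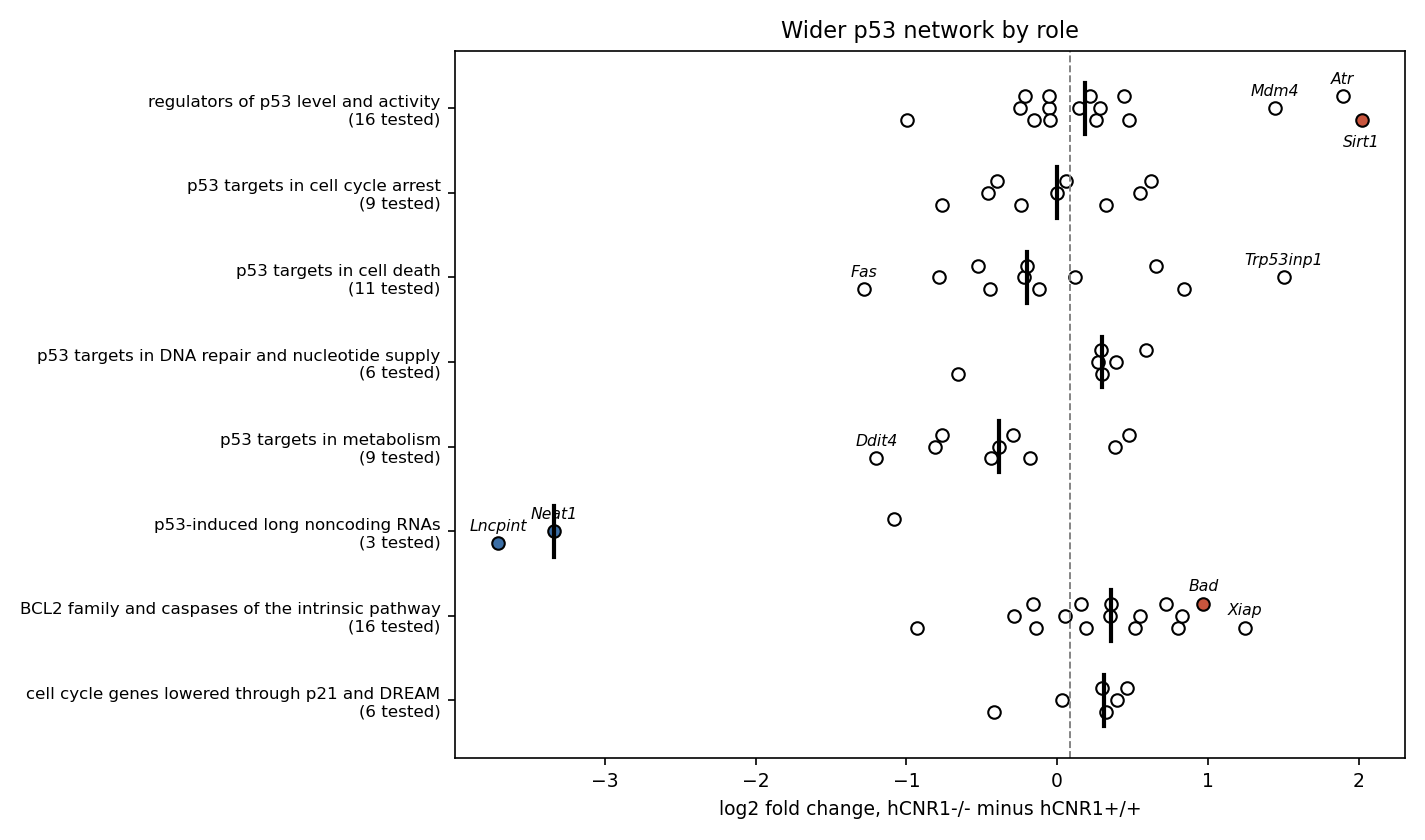
Log2 fold change (hCNR1-/- minus hCNR1+/+, x axis) of the 76 tested genes of the wider p53 list, by role; each circle is 1 gene, filled circles have an adjusted p below 0.05 in limma (red higher, blue lower), black lines are the medians of each role and the dashed line is the median over all tested genes, 0.08. Lncpint and Neat1 lie apart from all other genes, and Sirt1 and Bad are the filled circles on the right.

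**Figure D4:**
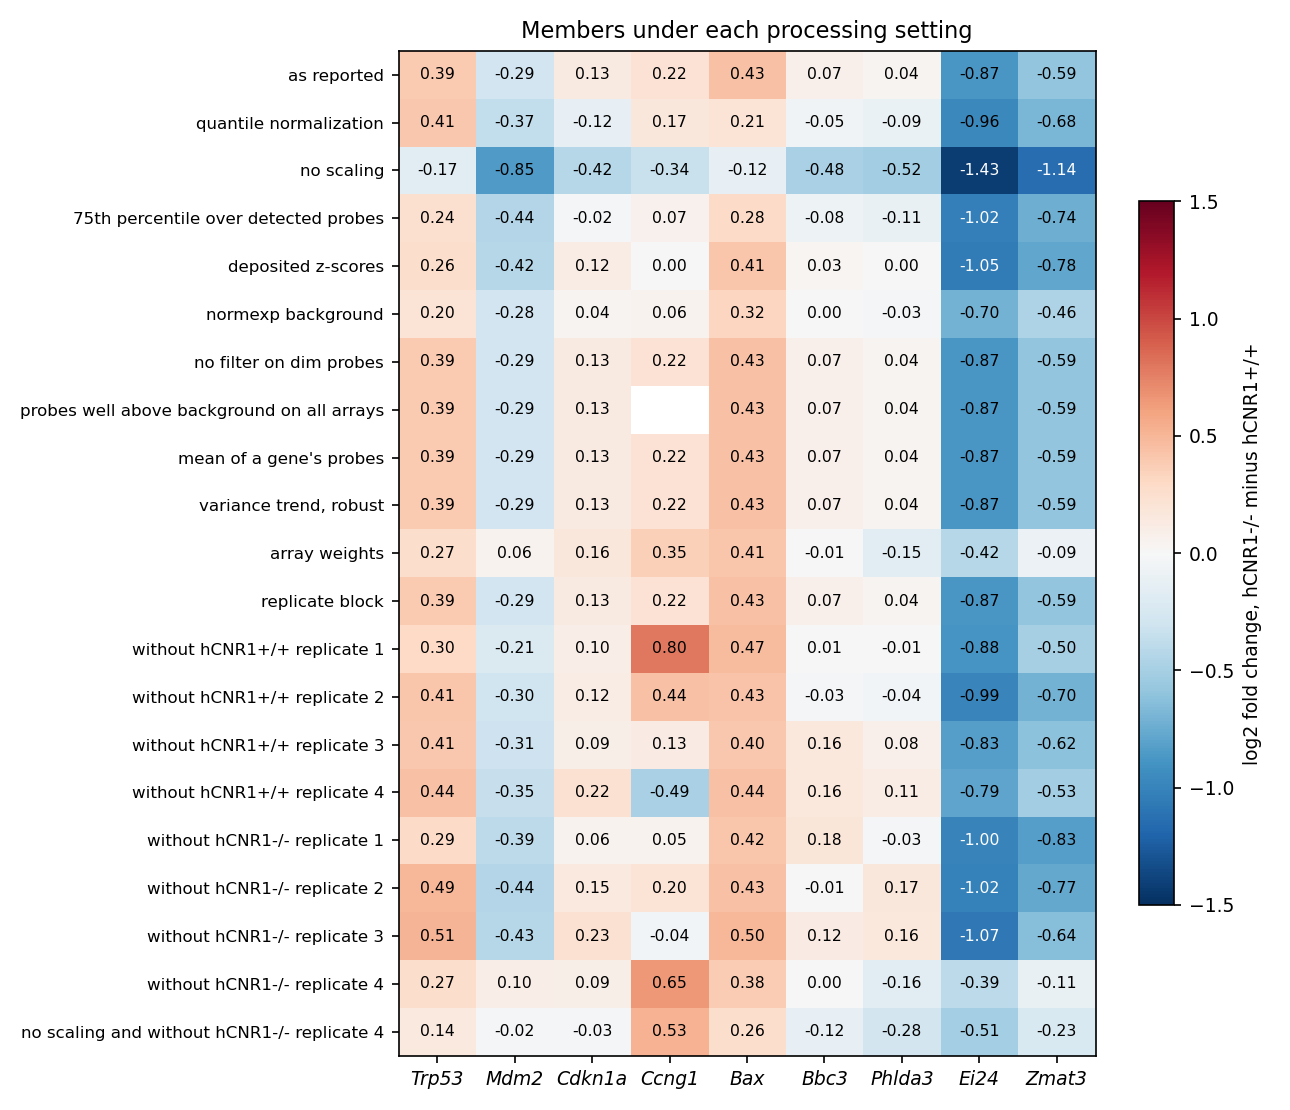
Log2 fold change (hCNR1-/- minus hCNR1+/+, colour and printed value) of the 9 tested members (columns) under the reported setting and 20 alternatives (rows); the blank cell is Ccng1, which was not tested when all 8 arrays had to be well above background. Ei24 and Zmat3 stayed negative throughout, and Bax and Trp53 were positive except without scaling over all 8 arrays. Mdm2, Cdkn1a, Ccng1, Bbc3 and Phlda3 changed sign between settings.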

How the data were processed

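Agilent 1-colour arrays with 200 ng of Cy3-labelled hepatocyte RNA were read with Feature Extraction 12.0.3.1 per the submitters' notes and file headers. The authors deposited the spot intensity, corrected for background within each array and not scaled between arrays, and a score for each spot, within 0.0050 of the array's own z-score of log intensity. The legend of the study gives fewer mice than the 8 labelled arrays; all 8 were used.

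Log2 intensities were centred on each array's 75th percentile over 59305 non-control spots, and the spots of a probe were averaged without outlier spots. Of 55681 probes 28331 were named by matching accessions, without versions, to RefSeq genes of GRCm38.p6. The brightest probe of each gene was tested if 4 or more of the 8 arrays showed it well above background, with lmFit and eBayes of limma 3.58.1 in R 4.3.3, two-sided, over 11072 genes. Exact permutation tests were run in Python 3.11.15, and the t quantiles of the 95% intervals came from scipy 1.17.1. The fit was tested on simulated data. The members and lists were chosen with earlier results of these data known. Genes named from the wider list were those with an adjusted p below 0.05 and up to the 6 largest rises and 6 largest falls past the fold change rule; for Trp53 and Cdkn1a the 3 most correlated genes were taken, and some items are not reported here. The replicate number is the slide column. Deviations of same-numbered arrays correlated at 0.211, -0.157, -0.0526 and 0.0172, and only replicate 1 matched its own number best. The labels name no pairs, and these weak correlations cannot settle whether the numbers pair the arrays. Alternatives covered scaling, background correction (normexp with an offset of 50), z-scores, filter, probe choice, variance model, array weights, replicate block and each array left out.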

Additional observations from a re-analysis of the deposited data

Results flagged for a closer look

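In 2 of the 38 groups of 4 arrays examined for the members and named genes, 1 array lay far from the other 3; chance gives about 1 in 20. Both were hCNR1-/- replicate 4, the dimmest array. Mdm2 read 2.20 there, against 3.67 to 3.81 on the other hCNR1-/- arrays, a gap of 0.915 of the range of the group, past the 95% critical value of Dixon's ratio. Ei24 read 1.11 there, against 2.94 to 3.16, a gap of 0.896 of the range. By the same measure this array lay apart below its group for 11.43% of all tested genes. The part of the array's dimness in both values was not tested.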

How the results depend on the processing

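The count of members at an adjusted p below 0.05 was 0 under every alternative except array weights, which gave 1 (Bax), and the count past the fold change rule was 0 except 1 (Ei24) with the percentile over detected probes and without hCNR1-/- replicate 3. For the wider list, counts at adjusted p were 2 without scaling, 2 with z-scores, 1 with normexp, 0 with no filter, 20 with array weights and 0 with the replicate block, against 4 as reported; counts past the fold change rule were 5 without scaling and 5 with normexp, against 9. The median of the wider list was -0.47 without scaling. The counts with array weights stand beside 646 lower and 2176 higher calls among all 11072 tested genes.

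Over all tested genes, lower and higher calls at adjusted p numbered 86 and 131 after quantile normalization, 29 and 1 without scaling, 51 and 30 with z-scores, 13 and 28 with normexp, 14 and 8 with no filter, and 646 and 2176 with array weights, against 144 and 325; higher calls were 102 with the percentile over detected probes, and lower calls 54 where all arrays had to be well above background. At the fold change rule lower and higher calls numbered 630 and 87 without scaling, 107 and 145 with normexp, 145 and 324 with all arrays well above background, and lower calls 624 over detected probes, against 415 and 529. The share of lower calls at that rule was 87.87% without scaling, 63.03% over detected probes, 53.99% with z-scores and 30.92% with all arrays well above background, against 43.96%. The median of all genes moved by -0.56 without scaling, -0.15 over detected probes and -0.10 with z-scores. An alternative chosen after seeing the data, no scaling and without hCNR1-/- replicate 4, gave 73 lower and 4 higher calls at adjusted p, 316 higher calls at the fold change rule, and 1 and 5 genes of the wider list.

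With 1 array left out, lower calls ran from 25 (without hCNR1+/+ replicate 3) to 323 (without hCNR1-/- replicate 4), higher calls from 13 to 1121 with the same arrays, fold change calls from 329 to 478 lower and 464 to 616 higher, members past the fold change rule from 0 to 1, and genes of the wider list from 1 (Lncpint, without replicate 3 of either genotype) to 9 (without hCNR1-/- replicate 4) at adjusted p and from 5 to 12 past the fold change rule. The replicate block left 0 lower and 0 higher calls at adjusted p, and whether the numbers pair the arrays is not known.

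Signs turned as follows. Without scaling the log2 fold changes were -0.17 for Trp53, -0.42 for Cdkn1a, -0.34 for Ccng1, -0.12 for Bax, -0.48 for Bbc3 and -0.52 for Phlda3. Quantile normalization gave -0.12 for Cdkn1a, -0.054 for Bbc3 and -0.095 for Phlda3, and the percentile over detected probes -0.019, -0.075 and -0.11. Normexp gave -0.0015 for Bbc3 and -0.028 for Phlda3. Array weights gave 0.057 for Mdm2, -0.0090 for Bbc3 and -0.15 for Phlda3. No scaling without hCNR1-/- replicate 4 gave -0.033 for Cdkn1a, -0.12 for Bbc3 and -0.28 for Phlda3. With 1 array left out the values ran from -0.44 to 0.10 for Mdm2, -0.49 to 0.80 for Ccng1, -0.026 to 0.18 for Bbc3 and -0.16 to 0.17 for Phlda3. Ei24 and Zmat3 kept their sign under all 20 alternatives. The cause of these shifts was not tested. The number of arrays, 4 per genotype, and for Ccng1 and Pmaip1 a signal near background limit the precision.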

Other observations

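The members did not move together on the array that stood apart. On hCNR1-/- replicate 4, Mdm2, Ei24 and Zmat3 had their lowest value of all 8 arrays and Trp53, Bax and Phlda3 their highest. Over all tested genes that array held the lowest value for 38.9% and the highest for 21.3%. On hCNR1+/+ replicate 1, Mdm2, Ccng1 and Zmat3 had their highest value, against 9.84% of all tested genes, and Trp53 its lowest, against 11.8%. The 2 spots of the Trp53 probe differed on each array by an SD of 0.03 to 0.26 on the log2 scale.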
